A study of Mus musculus with 37 samples.

Results

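Reads of the bacterial genus Robinsoniella were present in 9 of the 37 stool libraries of adolescent mice and in none of the other 28. The 9 carrier libraries were chosen by these reads, with 1 read as the lower limit, and they also held the fewest sequence variants of the series. The lowest carrier had 37 Robinsoniella reads (PAE male 23), and the libraries just outside the limit all had 0. Robinsoniella is a genus of anaerobic, spore-forming, Gram-positive bacteria in the family Lachnospiraceae. Its best known species, R. peoriensis, was first isolated from stored swine manure and has since been found in mammalian guts. The mouse large bowel is normally dominated by the Bacteroidota, which break down dietary and host glycans and release acetate, succinate and propionate, and by the Firmicutes, among which many strictly anaerobic Clostridia ferment fibre to butyrate. Genera such as Blautia, Hungatella, Clostridioides and the [Clostridium] innocuum group are known to grow in guts that have lost part of this flora.

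The mice were C57Bl/6 offspring of dams that drank water throughout pregnancy (control) or a 10% ethanol solution for its first 10 days and water afterwards (prenatal alcohol exposure, PAE). Bacterial 16S rRNA gene amplicons (V3–V4) were sequenced from stool. There were 10 PAE and 11 control libraries from males, and 9 PAE and 7 control libraries from females. A distinct amplicon sequence variant is called an ASV below, and libraries carry the numbers of their labels. No label names a dam, litter, cage or sequencing batch. The p-values therefore measure the spread between libraries only, which need not be the spread between litters. Control libraries are numbered 1 to 10 and 30 to 37, and PAE libraries 11 to 29, so the order of the numbers and the exposure cannot be told apart. Total reads ran from 102655 to 1255114 in carriers (median 236015) and from 152706 to 1813222 in non-carriers (median 370427), so the ranges overlapped.

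The genus label itself rested on 2 ASVs, both assigned to R. peoriensis. The first was present in all 9 carriers. The second was present in the 5 carriers with the most reads of the first, at 15.5% to 22.8% of its reads, and had 0 reads in the 4 carriers where the first had 37 to 142 reads. Control female 10 had the most Robinsoniella, 2053 reads or 1.05% of its library, followed by control female 3 with 1024 reads (0.577%). The PAE males 20, 21, 22, 23 and 24 had 441, 462, 142, 37 and 73 reads, or 0.0645%, 0.196%, 0.0699%, 0.0134% and 0.0711%. PAE female 27 had 993 reads (0.155%) and PAE female 28 had 137 (0.0109%). Both control carriers were therefore above every PAE carrier. In the 28 non-carriers the count of 0 allows a share of at most 0.00196% in the shallowest library, and such limits cover counting error only. In 16S data a share is relative: a lower share can come from fewer cells of a genus or from more cells of others, and these cannot be told apart.

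Carriage was found in 7 of 19 PAE libraries (36.8%) and 2 of 18 control libraries (11.1%), a difference of 25.7 percentage points that did not pass a two-sided Fisher's exact test (p = 0.124). Among males, 5 of 10 PAE libraries and 0 of 11 control libraries were carriers (Fisher's exact p = 0.0124). Among females, 2 of 9 PAE and 2 of 7 control libraries were carriers, a difference of -6.35 percentage points (Fisher's exact p = 1). An exact test that the odds ratio was equal in both sexes gave p = 0.0800, so a difference between the sexes was not shown. Without control female 3 or without control female 10 the pooled difference was 31 points (Fisher's exact p = 0.0438 in each case). By library number, carriers made up 2 of the 10 libraries 1 to 10, 0 of the 9 libraries 11 to 19, 7 of the 10 libraries 20 to 29 and 0 of the 8 libraries 30 to 37. The labels do not divide the PAE numbers 11 to 29. The cut between 19 and 20 was set here and falls just before the first PAE carrier, so these counts depend on it. All 7 PAE carriers lay at numbers from 20 to 29. Whether a shared litter, cage or batch underlies this grouping was not tested.

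The carriers held fewer ASVs than every other library. At an equal depth of 102655 reads, the control females 3 and 10 had 289 and 279 observed ASVs. The PAE males 20 to 24 had 205, 193, 253, 261 and 228. The PAE females 27 and 28 had 236 and 242. Non-carriers had 369 to 668 (median 524), so the ranges did not overlap, and the difference in means was -275. Counting only ASVs with at least 10 reads also left the ranges apart, as carriers had 111 to 162 of these, against 246 to 402 in non-carriers. The Shannon index, which weighs evenness as well as richness, was 3.50 to 3.87 in carriers and 3.88 to 4.96 in non-carriers, so the highest carrier (control female 10) lay just under the lowest non-carrier (control female 30). The 10 most abundant ASVs of a library took 47.6% to 60.5% of the reads of carriers and 27.1% to 57.9% of those of non-carriers. At genus level the 2 groups overlapped, with 54 to 95 genera in carriers and 65 to 149 in non-carriers. These measures come from the libraries whose reads defined the groups and are given without a test.

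**Figure D1:**
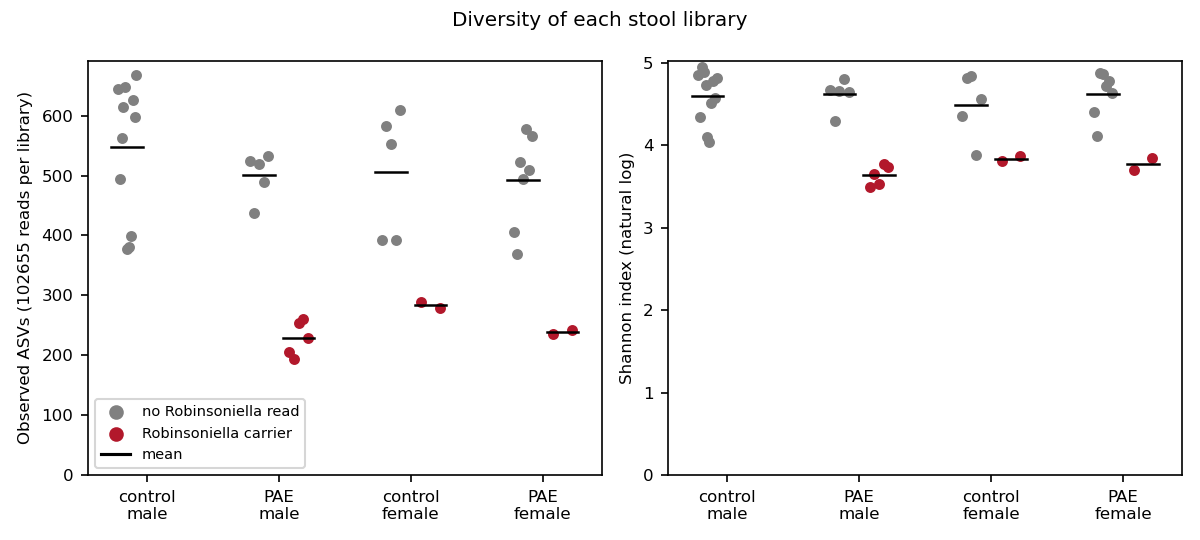
Observed ASVs at 102655 reads per library (left) and Shannon index (right) of each stool library, by exposure and sex; points are libraries, red for Robinsoniella carriers and grey for the others, and bars are group means. The 9 carriers sit between 193 and 289 observed ASVs, below all 28 other libraries, which start at 369.

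The same gap was seen inside each label group that held both states. Among PAE males, 5 carriers averaged 228 observed ASVs and 5 non-carriers 501. In PAE females the 2 carriers averaged 239 and the 7 non-carriers 492. Within control females the 2 carriers averaged 284 and the 5 non-carriers 506, with a Shannon difference of -0.65. The difference was thus present in both exposures and both sexes, although no control male was a carrier.

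Distances between carriers were on average shorter than those from carriers to the other libraries, most clearly for the PAE carriers. The Bray-Curtis distance, which is 0 for identical and 1 for disjoint ASV profiles, had a median of 0.395 between carriers, 0.776 between a carrier and a non-carrier, and 0.645 between non-carriers. The nearest library of every carrier was another carrier. The carriers formed 2 sets, however. The 7 PAE carriers lay at a median of 0.326 from each other, the 2 control carriers at 0.252, and a PAE carrier at 0.605 from a control carrier. The PAE males and PAE females among the carriers were close, at a median of 0.355. The control carriers were also closer to non-carriers: control female 10 lay at 0.495 from control female 4, nearer than to any PAE carrier, the closest pair of control and PAE carriers being 0.508 apart. For control female 3, 4 of the 8 other carriers were nearer than its nearest non-carrier. By contrast, the nearest non-carrier of a PAE carrier was never closer than 0.690. On the first principal coordinate (26.1% of variation) the 2 control carriers fell between the PAE carriers and the non-carriers. The second coordinate (16.9%) set 4 control non-carriers apart, those numbered 34 to 37, and did not separate the states.

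**Figure D2:**
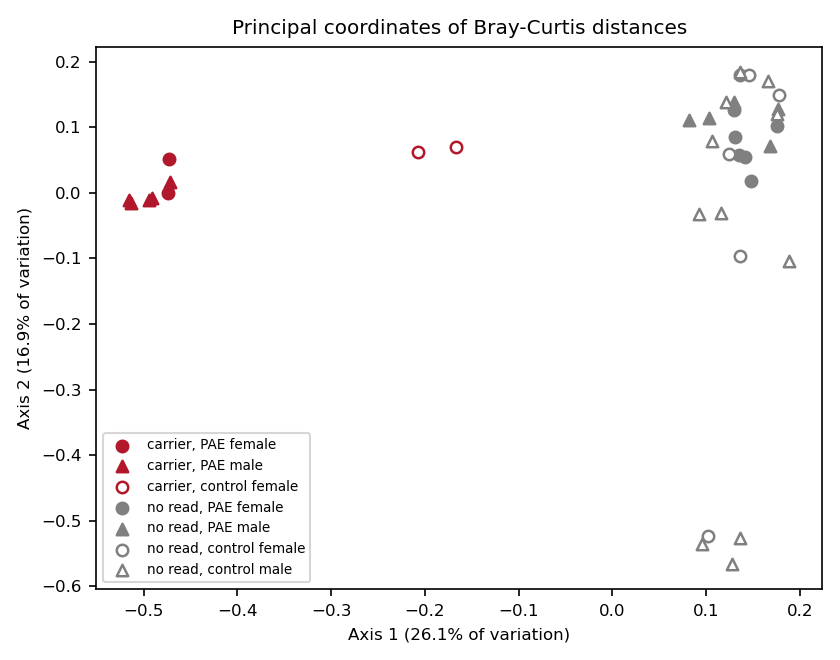
Principal coordinates of Bray-Curtis distances between the 37 libraries at equal depth; axis 1 holds 26.1% and axis 2 16.9% of the variation. Red marks carriers and grey the others, filled symbols PAE and open symbols control, circles females and triangles males. The 7 PAE carriers lie at the left end of axis 1 and the 2 control carriers between them and the other libraries.

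For the genera, 111 had enough reads to be compared, Robinsoniella left out. Of these, 4 were higher in every carrier than in any non-carrier (3.6% of those tested) and 15 were lower in every carrier (13.5%). A fitted difference of at least 4-fold, with exposure in the model, was found upward in 23 genera (20.7%) and downward in 46 (41.4%). Of the 111 genera, 11 had 5 reads in under 7 non-carriers, so they needed reads of carriers to pass the filter. Another 19 had 5 reads in no carrier. These counts therefore depend in part on the filter. Within label groups, where fewer libraries are compared, 11 genera were wholly higher and 31 wholly lower in PAE male carriers, 17 and 34 in PAE females and 21 and 24 in control females. The median fitted log2 difference over all genera was -0.65 with TMM scaling, with 50 genera higher and 61 lower. It was -1.51 with library totals (35 higher, 76 lower) and 0.35 with centred log-ratios (57 higher, 54 lower). Differences within about 1 log2 unit of 0 therefore have no settled direction. Some larger ones changed sign too, such as Turicibacter (-6.48 with TMM scaling, 1.26 with centred log-ratios). In all, 17 of the 61 named genera did so in some setting or without 1 library. All fitted log2 differences below are carriers minus non-carriers, with their SE.

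Bacteroides, a genus of glycan-degrading Gram-negative anaerobes, was the most abundant genus of the PAE carriers. It took 29.2%, 32.2%, 35.6%, 27.3% and 23.4% of the reads in PAE males 20 to 24, and 30.3% and 23.3% in PAE females 27 and 28. In control females 3 and 10 it took 8.99% and 8.80%. Non-carriers had 1.31% to 8.0% (median 3.35%), so the 2 control carriers stood only just above that range and the PAE carriers far above it. The fitted log2 difference was 3.35 ± 0.29. Its species split the carriers. Bacteroides acidifaciens was above the non-carrier range in all of them, at 5.74% to 13.9% against 0.342% to 5.43% in non-carriers. Bacteroides sartorii made up 6.47% to 21.9% of the PAE carriers but 0.0208% and 0.0267% of control females 3 and 10, within the non-carrier range of 0.00408% to 1.71%. Parabacteroides, a related genus, was at 1.98% to 10.2% in carriers and 0.327% to 6.22% in non-carriers, with a fitted difference of 2.37 ± 0.34. The summed share of propionate and succinate producers was 14.3% to 40.7% in carriers and 2.70% to 12.7% in non-carriers, most of it Bacteroides in each carrier.

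Blautia, an acetate-producing genus of the Lachnospiraceae, was also wholly higher in carriers. Control females 3 and 10 had 6.67% and 5.14%. The PAE males 20 to 24 had 17.8%, 10.4%, 12.9%, 9.63% and 13.4%, and the PAE females 27 and 28 had 9.55% and 10.2%. Non-carriers had 0.0258% to 1.34% (median 0.258%), so every carrier was above every non-carrier, and the mean share was 25.6-fold higher (fitted log2 difference 5.30 ± 0.42). The reads of carriers came almost wholly from ASVs with no species name, which took 5.14% to 17.8% in carriers and 0.00433% to 0.0295% in non-carriers. The leading one had at least 7427 reads in every carrier and 14 to 69 reads in every non-carrier. Whether reads at such low counts come from other libraries was not tested.

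Lachnoclostridium, another genus of the Lachnospiraceae, was highest in the control carriers. Control females 3 and 10 had 8.06% and 11%, the PAE males 20 to 24 had 2.44%, 2.15%, 2.17%, 2.27% and 2.71%, and the PAE females 27 and 28 had 1.79% and 4.33%. Non-carriers had 0.172% to 1.75%, so here the margin to PAE female 27 was narrow. In control females 3 and 10 most of the genus was a single ASV at 6.12% and 9.69%. That ASV was at 1.49% in PAE female 28, at 0.210% or less in the other PAE carriers, and at no more than 0.00559% in non-carriers. Reads assigned to [Clostridium] aldenense, in the same genus, were at 0.524% to 2.12% in carriers and at most 0.00207% in non-carriers. Of the 87 ASVs with reads in all 9 carriers, 2 had none in any other library, an aldenense ASV at 0.171% to 0.396% and the first Robinsoniella ASV. The Robinsoniella ASV is absent elsewhere by the choice of carriers.

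The [Clostridium] innocuum group, spore-forming members of the Erysipelotrichales, was the fourth wholly higher genus. Its shares were 0.939% and 0.886% in control females 3 and 10, between 0.161% and 0.360% in the PAE males, and 0.713% and 0.220% in PAE females 27 and 28. Reads were present in 10 of 28 non-carriers, at no more than 0.00450%. The mean share was thus 599-fold higher in carriers. Clostridioides, nearly all of it assigned to C. difficile, a toxin-forming species of disturbed guts in its pathogenic strains, had no read in any non-carrier. It was present in 7 of 9 carriers, at 0.505% in PAE female 27, 0.352% in PAE male 22, 0.0130% in PAE female 28 and 0.00676% in control female 3, and absent from the reads of PAE male 24 and control female 10. Flavonifractor, a flavonoid-degrading butyrate producer, also had no read in non-carriers and was present in 8 of 9 carriers, at 0.119% to 0.372% in PAE carriers, 0.0221% in control female 10 and 0 in control female 3. Against 3 reads over all non-carriers, the mean share was at least 6874-fold higher for Clostridioides and at least 6373-fold higher for Flavonifractor. Both genera passed the filter on low counts through carriers alone, as did 2 others of the 111, Nitrosomonas and Clostridium sensu stricto 1. These 4 are among the 11 genera that needed reads of carriers to pass. The 16S counts do not show whether C. difficile reads come from toxin-forming strains.

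Taken as a list, the genera known to expand after disturbance of the gut flora made up 14.6% to 24.9% of reads in carriers and 0.216% to 3.19% in non-carriers. The list was written with earlier results of these data known. It holds Blautia, Lachnoclostridium and the [Clostridium] innocuum group, described above as wholly higher, so its sum is no separate support. No count over its tested members is given, since Clostridioides, Flavonifractor and Clostridium sensu stricto 1 passed the filter on low counts only through carriers. The control carriers (15.8% and 17.2%) lay inside the range of the PAE carriers, although their members differed: Blautia led in PAE carriers and Lachnoclostridium in control carriers. Enterococcus, a lactic acid bacterium on this list, was at 0.0233% to 0.153% in all 9 carriers and at 0 to 0.251% in non-carriers, of which 17 had reads. The ranges overlapped.

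**Figure D3:**
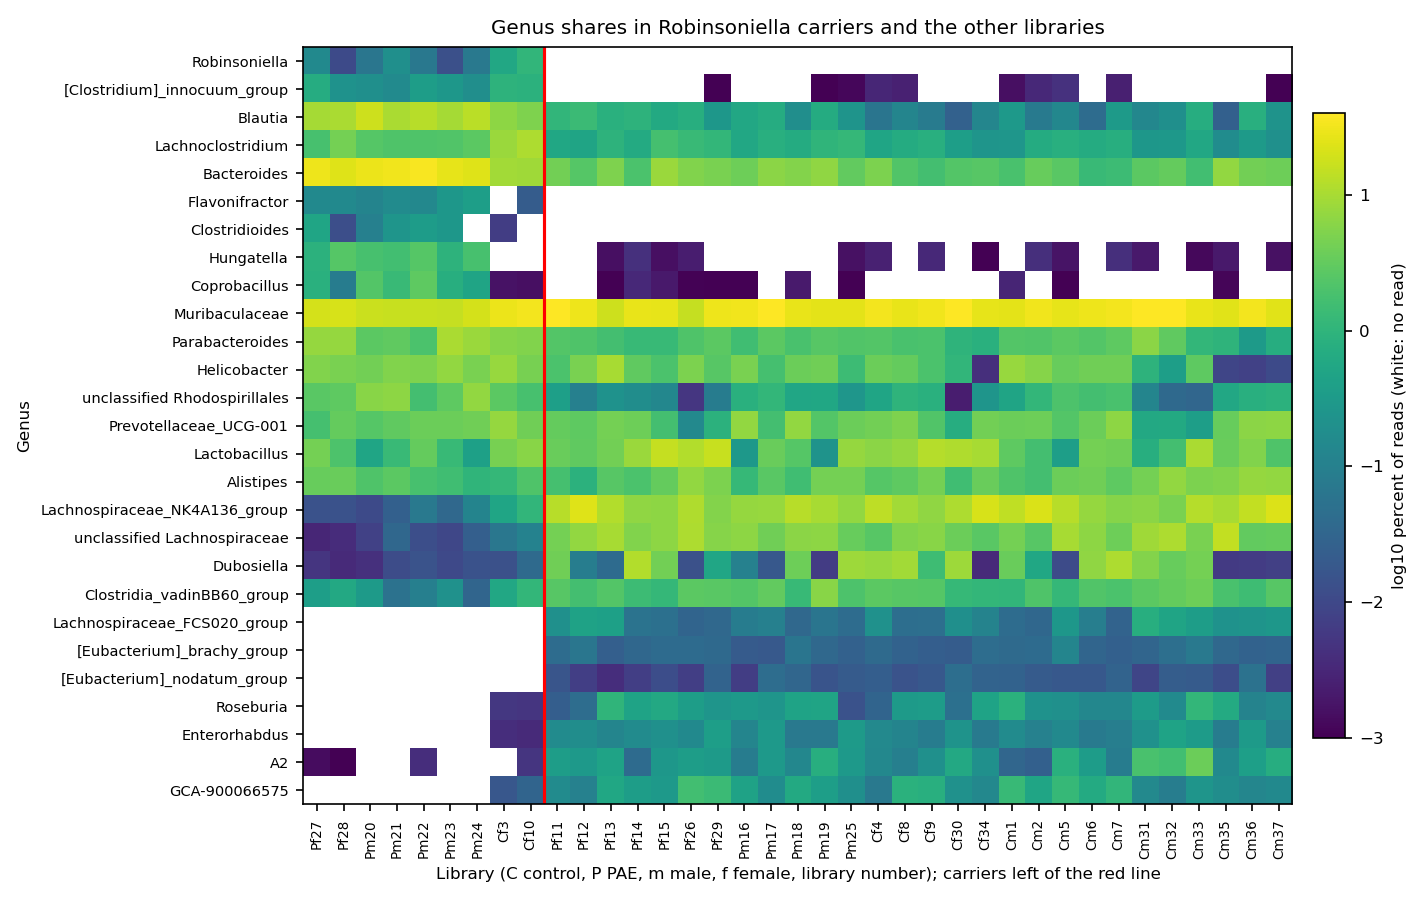
Share of reads of Robinsoniella and 26 named genera (rows) in each library (columns) as log10 percent; white cells had no read, and the 9 carriers stand left of the red line. Blautia, Bacteroides, Lachnoclostridium and the innocuum group are higher in every carrier than in any other library, and the 2 control carriers (Cf3, Cf10) lack Hungatella and have Coprobacillus at under 0.002%.

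The Clostridia that dominate the Firmicutes of the other mice were sparse in carriers. The Lachnospiraceae NK4A136 group, a major group of fibre-fermenting, presumed butyrate-producing bacteria in mouse stool, took 4.72% to 23.9% of non-carrier reads (median 10.4%). It took 0.511% and 1.07% in control females 3 and 10, 0.0107%, 0.0263%, 0.0709%, 0.0364% and 0.117% in PAE males 20 to 24, and 0.0147% and 0.0144% in PAE females 27 and 28. Every carrier was below every non-carrier, by 54.7-fold in the mean (fitted log2 difference -5.40 ± 0.59), and PAE carriers were lower still than control carriers. Lachnospiraceae with no genus name were wholly lower too, at 0.00313% to 0.110% in carriers against 2.50% to 15.2% in non-carriers (201-fold in the mean). Roseburia, a butyrate producer, was at 0.0147% to 1.10% in non-carriers, at 0.00563% and 0.00513% in control females 3 and 10, and at 0 in all 7 PAE carriers. The Lachnospiraceae FCS020 group and the [Eubacterium] brachy and nodatum groups had reads in all 28 non-carriers and in no carrier. For the FCS020 group the mean was at least 2235-fold lower.

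The family as a whole had overlapping shares. Lachnospiraceae other than Robinsoniella summed to 12.9% to 22.8% in carriers and 12.9% to 34.4% in non-carriers, while 2 of the 19 tested genera were wholly higher and 6 wholly lower, against 3.6% and 13.5% of all tested genera. The listed butyrate producers summed to 0.961% to 3.52% in carriers and 8.40% to 28.6% in non-carriers without overlap. The NK4A136 group alone took 4.72% to 23.9% of non-carrier reads. Of the 10 tested members 5 were at least 4-fold lower, near the 41.4% of all tested genera. Another 2 were at least 4-fold higher (20.7% of all tested genera), among them Flavonifractor, which passed the filter only through carriers. Anaerotruncus, also on that list, was at 0.105% and 0.101% in control females 3 and 10 and at 0 to 0.00296% in the PAE carriers, so its fitted difference was close to none (0.03 ± 0.97).

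Oscillibacter, of the Oscillospiraceae, was wholly lower, as were Colidextribacter and Oscillospiraceae without a genus name. Among the 20 tested genera of Oscillospirales families, 3 were wholly lower and 9 at least 4-fold lower, shares near those of all tested genera (13.5% and 41.4%). Another 3 were at least 4-fold higher (20.7% of all tested genera), among them Flavonifractor, which passed the filter only through carriers. The summed share was 0.899% to 3.59% in carriers against 3.34% to 12.7% in non-carriers, where 1 control carrier reached the non-carrier range. The uncultured Clostridia lineages (Clostridia UCG-014, Clostridia vadinBB60 group, Christensenellaceae and Peptococcaceae) summed to 0.0487% to 1.21% in carriers and 1.48% to 9.62% in non-carriers. In them, Clostridia UCG-014 was at 0 to 0.0146% against 0.00917% to 7.28%. Of the 5 tested genera of these lineages, 2 were wholly lower and 3 at least 4-fold lower, against 13.5% and 41.4% of all tested genera. Christensenellaceae without a genus name went the other way (fitted log2 difference 3.33 ± 1.59), the 1 member at least 4-fold higher (20.7% of all tested genera). Enterorhabdus, an actinobacterial gut genus, was at 0.0711% to 0.475% in every non-carrier, at 0.00394% and 0.00359% in control females 3 and 10, and at 0 in all PAE carriers.

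The Erysipelotrichales showed both directions at once. The [Clostridium] innocuum group, which belongs to them, was wholly higher, as given above. Dubosiella, one of the 10 most abundant genera of non-carriers, was at 0.00347% to 11.8% there (median 2.43%) and at 0.00359% to 0.0390% in carriers, a 260-fold lower mean with overlapping ranges. Coprobacillus was at 2.35%, 1.29%, 2.87%, 0.770% and 0.490% in PAE males 20 to 24 and at 0.845% and 0.0841% in PAE females 27 and 28, but at 0.00169% and 0.00154% in control females 3 and 10. Non-carriers had at most 0.00335%. The summed shares of the families overlapped, at 0.308% to 3.41% and 0.0527% to 15%. Bifidobacterium, a genus of carbohydrate-fermenting actinobacteria, had at most 0.00197% in carriers and reads in 23 of 28 non-carriers, at up to 2.32%. The wall-less lineages were at 0.00223% to 0.119% in carriers and 0.00350% to 4.41% in non-carriers, with no RF39 read in any carrier.

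Among the other phyla, Proteobacteria were wholly higher in carriers, at 2.96% to 9.24% against 0.0671% to 2.17%. Of their 11 tested genera 3 were at least 4-fold higher, near the 20.7% of all tested genera, and 1 of the 3, Nitrosomonas, passed the filter only through carriers. Parasutterella, an asaccharolytic gut betaproteobacterium, was at 1.22% and 1.06% in control females 3 and 10, at 1.23% to 3.77% in PAE males 20 to 24 and at 1.51% and 3.05% in PAE females 27 and 28. Non-carriers had 0.0172% to 1.56% (median 0.131%), so the ranges overlapped while the carriers' lowest value was far above the non-carriers' median. Rhodospirillales without a genus name were at 1.67% to 7.27% and 0.00231% to 2.08%. Nitrosomonas was at no more than 0.0191% in any carrier. Bacteroidota as a phylum took 56.4% to 67.5% in carriers and 36.7% to 68.9% in non-carriers, and Firmicutes 18.7% to 31.6% and 27% to 52.4%, so both overlapped.

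Several abundant genera did not separate the states by their shares. The rows named only Muribaculaceae, the largest taxon in mouse stool, took 16.0% to 33.1% in carriers and 15.5% to 46.8% in non-carriers. The share was lower in the mean (1.45-fold) while the fitted log2 difference was 0.43 ± 0.20 with TMM scaling and -0.47 with library totals. Carriers held fewer Muribaculaceae ASVs than non-carriers, as given below, and the leading Muribaculaceae ASV of non-carriers set PAE carriers apart from control carriers. That ASV, at 0.0126% to 13.9% in non-carriers, had 7.07% and 4.90% in control females 3 and 10 but only 33 to 60 reads in each PAE carrier. Those counts hardly varied although the totals of PAE carriers ran from 102655 to 1255114. Whether reads at such low and even counts come from other libraries was not tested, here or for other taxa with few reads. Alistipes, Prevotellaceae UCG-001 and Lactobacillus overlapped as well, and their fitted differences changed sign between scalings or when 1 library was left out. Helicobacter was at 4.11% to 7.87% in carriers and 0.00414% to 10.1% in non-carriers. The summed shares of Rikenellaceae (1.36% to 7.98% in carriers and 1.80% to 13.3% in non-carriers), Prevotellaceae (2.67% to 11.2% and 0.185% to 12.4%) and lactic acid bacteria (0.499% to 6.30% and 0.250% to 16.7%) overlapped too. So did those of mucus-associated bacteria (4.12% to 7.87% and 0.214% to 12.3%) and of sulfate and sulfite reducers (0.721% to 2.97% and 0.213% to 3.48%). The listed reagent and skin contaminants summed to 0.00295% to 0.0636% in carriers and 0.00259% to 0.0616% in non-carriers, so their ranges overlapped nearly entirely.

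At the level of single ASVs, 359 were found in at least 15 of the 28 non-carriers, and 129 of them had no read in any carrier. Of the 60 ASVs with reads in all non-carriers, 12 had none in any carrier. The NK4A136 group, lower in share, also had fewer variants, with 4 to 12 ASVs per carrier and 13 to 45 per non-carrier at equal depth. Lachnospiraceae without a genus name, likewise lower in share, had 2 to 18 and 38 to 112. Muribaculaceae, whose shares overlapped, had 60 to 70 per carrier and 75 to 112 per non-carrier, so its variant counts did not overlap. Blautia, which was higher in carriers, had 2 to 10 and 3 to 8. Bacteroides had 8 to 28 and 6 to 13.

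Exposure is a label the choice of carriers did not use, and it was tested with edgeR's quasi-likelihood test with Benjamini-Hochberg adjustment over the 111 genera. Without the state in the model, 15 genera were called between PAE and control (13.5%), 8 of them higher and 7 lower in PAE. With the state in the model the count was 9 (8.11%), 3 higher and 6 lower. Coprobacillus (fitted log2 difference 11.05 ± 1.87, edgeR adjusted p = 3.23e-05), Hungatella (9.79 ± 1.78, edgeR adjusted p = 7.85e-05), and Bacteroides (2.48 ± 0.52, edgeR adjusted p = 0.000426) were called without the state and not with it. Hungatella lost that call in limma on centred log-ratios (limma adjusted p = 0.0547). Clostridioides and Flavonifractor (edgeR adjusted p = 0.0134) were called as well, but on reads of the carriers that let them pass the filter. Clostridioides lost the call in DESeq2 (adjusted p = 0.104) and in limma on centred log-ratios (adjusted p = 0.0547). Outside the PAE carriers, Coprobacillus and Hungatella were at no more than 0.00335% and 0.00431% of reads. The difference between the fits was not itself tested. Turicibacter, Clostridium sensu stricto 1 and Blautia were the 3 called higher with the state in the model, and Intestinimonas, Anaerotruncus, F082, the NK4A136 group, Erysipelotrichaceae without a genus name and Anaerofustis the 6 called lower. Clostridium sensu stricto 1 passed the filter on low counts only through carriers, so its call is not read as a result. The NK4A136 group (log2 difference -1.35 ± 0.36, edgeR adjusted p = 0.0122) lost its call without any 1 of 9 single libraries, control female 10 among them (edgeR adjusted p = 0.146), Anaerofustis without any 1 of 17, and Erysipelotrichaceae without a genus name without control male 36. In limma on centred log-ratios 4 of the 9 kept their call. Turicibacter (limma adjusted p = 0.0890), Clostridium sensu stricto 1 (0.0892) and F082 (0.376) were among those lost. F082 was also lost with sex as a covariate (edgeR adjusted p = 0.110). With the runs of library numbers as a random block in limma the count was 0 without the state (2 genera at an unadjusted p under 0.05) and 1 with it, so these calls cannot be told apart from differences between the runs.

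Among the 28 non-carriers alone, 8 genera were called (7.21%). Turicibacter was higher in PAE, with reads in 8 of 12 PAE and 7 of 16 control libraries and a mean of 0.590% ± 1.87 (SD, n = 12) against 0.00102% ± 0.00166 (SD, n = 16), edgeR adjusted p = 0.000469. That mean rested on few libraries, since the highest had 6.49% and the median was 0.00221%. Blautia was 3.21-fold higher in the mean, at 0.685% ± 0.344 (SD, n = 12) against 0.214% ± 0.234 (SD, n = 16), edgeR adjusted p = 0.0375. Bilophila, a sulfite-reducing genus, and Clostridium sensu stricto 1 were also called higher. The latter passed the filter on low counts only through carriers, so its call is not read as a result. Intestinimonas, a butyrate producer, was lower in PAE, with reads in 3 of 12 PAE libraries, at up to 0.000619%, and in 10 of 16 control libraries, at up to 0.193% (edgeR adjusted p = 0.000469). Parasutterella was also lower, at 0.101% ± 0.0688 (SD, n = 12) against 0.342% ± 0.468 (SD, n = 16), edgeR adjusted p = 0.0162, and lost its call without control female 30. F082 and Anaerofustis were called lower too. With sex as a covariate 3 calls remained, Turicibacter, Intestinimonas and Parasutterella, and with the runs as a random block in limma there were 0 (7 at an unadjusted p under 0.05). In limma on centred log-ratios 4 of the 8 kept their call, and Turicibacter (limma adjusted p = 0.196) and Parasutterella (0.173) were among those lost. Without PAE female 12 or PAE female 26 the count was 5, with neither Bilophila nor Blautia among them.

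Diversity did not differ detectably by exposure among non-carriers. PAE libraries had 496 ± 62.5 observed ASVs (SD, n = 12) and control libraries 534 ± 109 (SD, n = 16), with p = 0.286 in a two-sided permutation test. For PAE libraries 11 to 19 the difference was -79.2 against controls 1 to 10 alone (exact permutation p = 0.0510). It was -24.2 against controls 30 to 37 alone (exact permutation p = 0.622). The Shannon index was 4.62 ± 0.23 (SD, n = 12) in all PAE and 4.57 ± 0.33 (SD, n = 16) in all control non-carriers, with p = 0.618 in a two-sided permutation test. Exposure accounted for 7.62% of the variation of Bray-Curtis distances between non-carriers (permutation p = 0.0276), and for 4.77% at genus level (permutation p = 0.225). Between PAE libraries 11 to 19 and controls 1 to 10 alone it was 10.7% (permutation p = 0.0433). Taking only controls 30 to 37 in their place gave 25.7% (permutation p = 6e-05), so the value depended on which run of controls was used.

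The 9 carriers themselves differed by exposure, though only 2 are controls. Observed ASVs were 231 ± 24.7 (SD, n = 7) in PAE carriers and 284 ± 7.07 (SD, n = 2) in control carriers, and no PAE carrier reached the lower control value. The exact permutation test gave a two-sided p = 0.0556, and 0.0278 is the smallest it can give with 2 against 7. Without PAE male 21 or without PAE male 23 the exact permutation p was 0.0357. Over all reads, without rarefaction, the difference was -27.1 (exact permutation p = 0.472) in place of -52.9. In edgeR's quasi-likelihood test 23 of 111 genera were called between PAE and control carriers (20.7%), 3 higher and 20 lower in PAE. The same number, 23 (20.7%), was called for the interaction, the exposure difference in carriers minus that in non-carriers, 4 positive and 19 negative. Both counts depended on control female 10: without it they were 10 and 4. All control carriers are female and lie in libraries 1 to 10, and 5 of the 7 PAE carriers are male and all lie in libraries 20 to 29, so exposure and number run cannot be told apart among carriers, and exposure is partly confounded with sex.

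Hungatella, a Lachnospiraceae genus able to use host glycans, showed this contrast most widely. It was at 1.82%, 1.61%, 2.46%, 0.942% and 1.81% in PAE males 20 to 24, at 0.910% and 2.46% in PAE females 27 and 28, and at 0 in both control carriers, although 15 of 28 non-carriers had reads at up to 0.00431%. Against 3 reads over the 2 control carriers this is a mean higher by at least 2131-fold (edgeR adjusted p = 0.00115). Coprobacillus was 769-fold higher in the mean (edgeR adjusted p = 0.00700), and lost its call without either control carrier (edgeR adjusted p = 0.109 without control female 10 and 0.0875 without control female 3). Bacteroides was 3.23-fold higher, at 28.8% ± 4.49 (SD, n = 7) against 8.90% ± 0.128 (SD, n = 2), edgeR adjusted p = 0.00730. Leaving out 1 library gave log2 differences from 1.80 to 2.85 for Bacteroides. Its call held in 7 of 10 alternative settings. It was lost in DESeq2 (adjusted p = 0.0749) and with the runs as a random block in limma (adjusted p = 0.221).

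Among the 20 genera called lower in PAE carriers, Ruminococcaceae without a genus name were at 1.64% and 0.969% in control females 3 and 10, inside or above the non-carrier range of 0.221% to 1.23%, and at no more than 0.0155% in PAE carriers. They were 220-fold lower in the mean, with edgeR adjusted p = 8.67e-08. The Lachnospiraceae genus GCA-900066575 was at 0.0180% and 0.0308% in control females 3 and 10 and had no read in PAE carriers, at least 276-fold lower (edgeR adjusted p = 8.67e-08). The NK4A136 group was 19.1-fold lower (edgeR adjusted p = 6.08e-07), and Roseburia and Enterorhabdus had reads in the control carriers only (edgeR adjusted p = 1.77e-05 and 9.59e-07). Peptococcus was called as well (edgeR adjusted p = 1.04e-05), on reads of control female 10 alone. The calls of GCA-900066575, unclassified Ruminococcaceae, Enterorhabdus and Roseburia passed the threshold without either control carrier, in the interaction also, but that leaves 1 control carrier, which is assumed to vary like the other groups. With the runs as a random block in limma 13 genera were called between the carriers and 12 for the interaction. Peptococcus lost both calls there (limma adjusted p = 0.301 and 0.426), and Roseburia lost its interaction call (limma adjusted p = 0.0733).

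**Figure D4:**
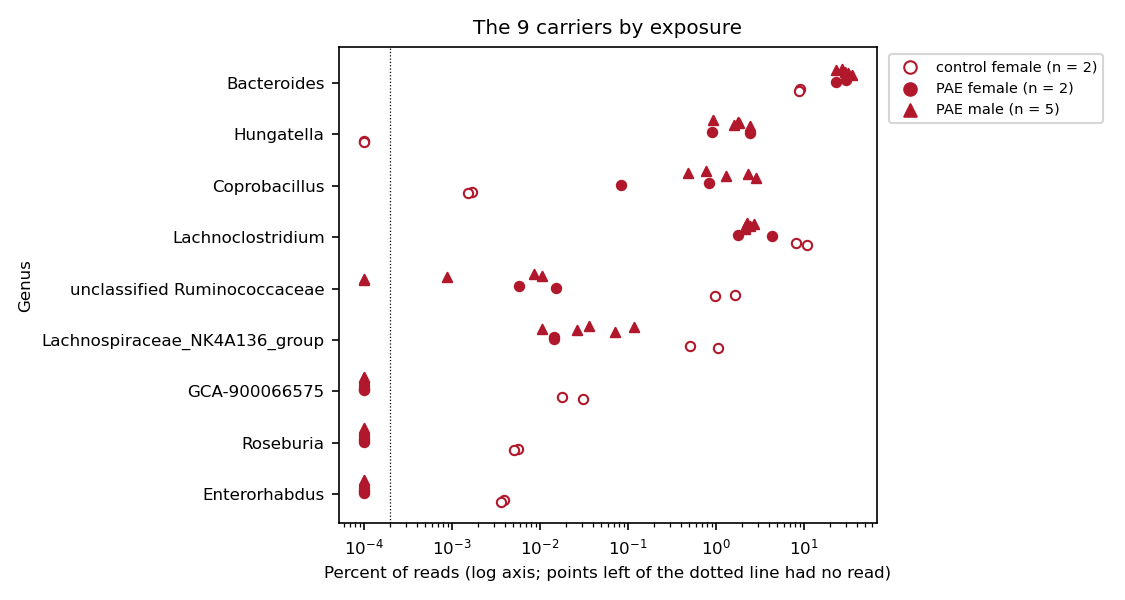
Share of reads of 9 genera in each of the 9 carriers on a log axis; open circles are the 2 control females, filled circles the 2 PAE females and filled triangles the 5 PAE males, and points left of the dotted line had no read. Hungatella lies at 0.910% to 2.46% in the PAE carriers with no read in the controls, and GCA-900066575, Roseburia and Enterorhabdus have reads in the control carriers only.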

How the data were processed

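The authors deposited raw read counts per amplicon sequence variant for 37 libraries, with a table of taxon names. Per the labels, V3–V4 amplicons were sequenced on a NovaSeq with paired reads of 250 cycles. Cutadapt, Bowtie2 and the build GRCm39 are listed in the submitters' processing notes. Which denoiser, classifier and taxonomy release were used is not given in the sources used here. For 2 control males the title and the description swap column names. Both are controls either way.

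Of 6100 rows, 6085 were kept (99.99% of 16140229 reads). Rows without taxonomy (2 rows, 22 reads), unassigned or eukaryotic rows (3 rows, 10 reads) and chloroplast or mitochondrial rows (10 rows, 1490 reads) were left out. Counts were summed to 432 genera, and rows without a genus name (7.75% of reads) to their lowest named rank. A genus was tested if 7 or more libraries had 5 or more of its reads. This left 111 genera, Robinsoniella left out, fitted with edgeR 4.0.16 (R 4.3.3) with TMM factors and the quasi-likelihood test, called at a Benjamini-Hochberg adjusted p under 0.05. One model held exposure and state, 1 exposure alone, and 1 the 4 means of exposure by state. The state coefficient is given with no p, since the libraries were chosen from their own reads. DESeq2 1.42.0 and limma 3.58.1 served as alternatives. The edgeR fit of exposure with the state in the model was tested on simulated counts that held no state difference. The other fits were not tested in this way. Diversity and Bray-Curtis distances used ASV counts rarefied to 102655 reads, with two-sided permutation tests. These were exact for diversity among carriers and against 1 run of controls alone, and used 100000 permutations otherwise. A lower bound of a fold uses 3 reads over the group at 0. Other folds divide one group's mean percent of reads by the other's.

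The carriers, the taxon lists and the tests were chosen with earlier results of these data known. Lists follow general knowledge of the taxa. Named genera are the 10 most abundant of each state, the 8 per direction with the largest state difference among those that overlap least, up to 3 per list, and up to 6 called genera per direction and exposure test by adjusted p. Colidextribacter and Oscillibacter were named after their values were seen. Short-chain fatty acid and blood measurements were not analysed here.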

Additional observations from a re-analysis of the deposited data

Results flagged for a closer look

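Among the 9 carriers, 64 shares and summary measures were checked for a library standing apart by Dixon's test, and 16 had one. The test flags about 1 in 20 by chance only for normally distributed values. Peptococcus, F082 and Staphylococcus were above 0 in a single carrier each, so the count of flags is not compared with that rate. Control female 10 was the highest for Lachnospiraceae NK4A136 group (1.07%), Burkholderia-Caballeronia-Paraburkholderia (0.0600%), Streptococcus (0.0487%), Dubosiella (0.0390%), Erysipelotrichaceae without a genus name (0.0272%), Peptococcaceae without a genus name (0.00975%), Intestinimonas (0.00872%), Peptococcus (0.00359%) and Pseudomonas (0.00359%). Control female 3 was the highest for Prevotellaceae UCG-001 (7.48%), Desulfovibrionaceae without a genus name (1.61%) and Bilophila (1.13%). A control carrier was thus the library standing apart in 12 of the 16. PAE female 28 was the highest for Clostridium sensu stricto 1 (0.184%) and F082 (0.000398%), PAE male 24 for Clostridia UCG-014 (0.0146%) and PAE male 20 for Staphylococcus (0.00278%).

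In 10 named genera the exposure difference in carriers differed from that in non-carriers by edgeR's interaction test. The log2 difference of differences was 17.51 for Hungatella, 8.47 for Coprobacillus, 3.31 for Rikenellaceae RC9 gut group and 2.78 for Desulfovibrio. It was -10.20 for GCA-900066575, -7.71 for Roseburia, -7.46 for Ruminococcaceae without a genus name, -7.30 for Enterorhabdus, -6.09 for Peptococcus and -3.58 for Lachnospiraceae NK4A136 group. Fitted values of genera with groups at 0 reads depend on the prior count and are no measure of size. Without control female 10, the calls of Hungatella (edgeR adjusted p = 0.0610), NK4A136 group (0.238), Coprobacillus (0.238), Desulfovibrio (0.197), Rikenellaceae RC9 gut group (0.297) and Peptococcus (1) were lost. Without control female 3, those of Coprobacillus (edgeR adjusted p = 0.142), Desulfovibrio (0.135) and Rikenellaceae RC9 gut group (0.135) were lost.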

How the results depend on the processing

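The difference between carriers and non-carriers was -312 observed ASVs over all reads, -193 for ASVs with at least 10 reads and -222 within control females. For the Shannon index it was -0.65 within control females and -1.01 within libraries 20 to 29. The counts of genera wholly higher and wholly lower were 15 and 23 within libraries 1 to 10, and 9 and 41 within libraries 20 to 29, against 11 and 31 in PAE males, 17 and 34 in PAE females and 21 and 24 in control females. Fitted state differences turned from negative to 1.12 (limma on centred log-ratios) and 1.42 (limma with runs as a random block) for Intestinimonas and to 1.26 (limma on centred log-ratios) for Turicibacter. Among genera with fitted differences under 4-fold, the highest value over the settings was 1.51 for F082 (-1.98 with TMM), 4.98 for Clostridium sensu stricto 1 (-0.41) and 0.41 for Staphylococcus (-1.83). In all, 17 of the 61 named genera changed sign in some setting or without 1 library. Calls by exposure with the state, without it and within non-carriers were 106, 151 and 113 with no filter, where 431 genera were tested, and 4, 2 and 3 with the stricter filter. With the runs of library numbers as a random block they were 1, 0 and 0, with 13 calls within carriers and 12 for the interaction. Within non-carriers there were 3 calls with sex as a covariate, 5 with depth as a covariate and 3 with controls 1 to 10 alone or 10 with controls 30 to 37 alone against PAE 11 to 19. Females alone gave 1 call with the state in the model, and limma on centred log-ratios gave 11 for the interaction. Leaving out 1 library gave 10 to 27 calls within carriers, 4 to 24 for the interaction and 5 to 11 within non-carriers. It moved the difference of observed ASVs within carriers between -57.9 and -46.5 (exact permutation p from 0.0357 to 0.25) and the difference in carriage between 22.2 and 31 percentage points. For Peptococcus, leaving out libraries gave log2 exposure differences from -6.95 to 0 within carriers and from -6.50 to 0.44 for the interaction. The upper ends are without control female 10, where no carrier has a read. The difference in carriage was 50.0 points in males and -6.35 in females. The Shannon difference by exposure was -0.12 within non-carriers when PAE 11 to 19 were set against controls 1 to 10, 0.19 when set against controls 30 to 37, and -0.18 within carriers on genera (exact permutation p = 0.0278, the smallest possible). Composition by exposure within non-carriers was 4.77% on genera. Against the same runs of controls it was 10.7% and 25.7%. Settings within runs of library numbers, with 1 run of controls alone, with females alone in the fit and with ASVs of at least 10 reads were chosen after seeing the data. An adjusted p that DESeq2 gave as NA was left out. The cause of these changes was not tested. No paired analysis was possible because the groups share no replicate numbers.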
